A study of Mus musculus with 12 samples.

Results

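The ErbB ligands are secreted or membrane-tethered growth factors that bind the epidermal growth factor (EGF) receptor and its relatives. The 8 genes described here were chosen by name: the EGF receptor ligands Tgfa, Hbegf, Btc and Egf, and the neuregulins Nrg1, Nrg2, Nrg3 and Nrg4. They are 8 of 55357 genes counted, and they take 9 rows because a second, 186-base row is also named Nrg1. RNA came from mouse embryos at E17.5, from cortex dissected together with the hippocampal formation and divided into a rostral and a caudal piece. Knockout embryos were Nestin-EgfrF/F, with both Egfr alleles floxed and a Cre driven by Nestin, which is active in neural progenitors and passes the deletion on to their progeny. Control embryos were EgfrF/+, with 1 floxed and 1 intact allele, and the sources used here do not say whether they carry Cre. The 12 libraries make 4 groups of 3: knockout rostral and knockout caudal (titled embryos 5, 2 and 7), and control rostral and control caudal (titled embryos 1, 3 and 9). All 4 groups thus share at least 1 floxed allele, and vessels, microglia and meninges come from other lineages than these neural progenitors.

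All ErbB ligands are made as precursors that carry an EGF-like motif, and metalloproteases such as Adam17 and Adam10 release many of them from the cell surface. Tgfa, Egf, Hbegf and Btc bind the EGF receptor, and Hbegf and Btc also bind Erbb4. Nrg1 and Nrg2 bind Erbb3 and Erbb4, whereas Nrg3 and Nrg4 bind Erbb4. Erbb2 has no known ligand of its own and acts as the preferred partner of the others. In the mouse cortex Tgfa is a major ligand of the EGF receptor, and Nrg1 and Nrg3 act through Erbb4 on the migration and wiring of interneurons.

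These genes share an EGF-like motif, which other proteins also carry. The 3 coding sequences below show how far it has diverged between the EGF receptor ligand Tgfa and the neuregulins Nrg1 and Nrg3. They were read from the GENCODE vM21 transcripts (GRCm38) Tgfa-201, Nrg1-201 and Nrg3-201. Capitals mark the 6 cysteine codons.
Tgfa: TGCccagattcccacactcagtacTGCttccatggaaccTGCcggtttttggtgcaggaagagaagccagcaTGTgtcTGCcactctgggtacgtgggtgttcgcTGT
Nrg1: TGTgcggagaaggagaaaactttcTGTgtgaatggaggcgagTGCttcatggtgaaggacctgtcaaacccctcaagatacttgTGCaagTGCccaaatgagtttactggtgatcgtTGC
Nrg3: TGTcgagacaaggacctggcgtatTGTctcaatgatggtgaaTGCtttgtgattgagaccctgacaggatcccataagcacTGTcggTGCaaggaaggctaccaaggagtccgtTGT
The motifs span 36 codons in Tgfa, 40 in Nrg1 and 39 in Nrg3. All 3 place 7 codons between the first and second cysteine, 1 between the fourth and the fifth and 8 between the last pair. They differ in the second gap, of 4 codons in Tgfa and 5 in both neuregulins, and in the third gap, which holds 10 codons in Tgfa, 13 in Nrg1 and 12 in Nrg3. Neither gap separates EGF receptor ligands from neuregulins, since Egf and Nrg4 share gaps of 7, 5, 10, 1 and 8 codons. The encoded residues are identical at 27.5% of aligned positions between Tgfa and Nrg1, at 40.0% between Tgfa and Nrg3 and at 37.5% between Nrg1 and Nrg3. The closest pair among the 6 motifs examined (Tgfa, Btc, Egf, Nrg1, Nrg3 and Nrg4) was Tgfa with Btc, at 52.8%. Hbegf and Nrg2 were not examined, so the closest pair of all 8 ligands is not given.

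In GRCm39, the build of the deposited files, Egf lies on chr3:129471214-129548965, Btc on chr5:91505120-91550853, Tgfa on chr6:86172205-86252701, Nrg1 on chr8:32304579-33374825, Nrg4 on chr9:55127506-55234128 and Nrg3 on chr14:38090909-39195045. Nrg2 (chr18:36150705-36330433) and Hbegf (chr18:36637980-36648858) lie on the same chromosome and strand, 307547 bases apart. The short Nrg1 row (chr8:32408601-32408786) overlaps an exon of Nrg1 on the same strand. It held 0.293 to 0.711 CPM (counts scaled to a library total of 1000000), so reads shared by both rows are few beside the 35.0 to 47.1 CPM of the main row.

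Total counts per library ran from 25223733 to 30383672. Egfr, the targeted gene, had 4.87, 3.60 and 6.93 CPM in knockout rostral libraries 5, 2 and 7, against 19.2, 25.97 and 31.1 CPM in control rostral libraries 1, 3 and 9. It had 5.69, 7.33 and 6.21 CPM in knockout caudal libraries, against 29.9, 36.8 and 41.6 CPM in control caudal libraries. Egfr was thus at 20.2% of control in rostral and 17.8% of control in caudal libraries, with no overlap of genotypes (exact two-sided permutation p = 0.1 in each, the smallest that 3 against 3 allow), and the genotype labels hold by this measure. Gh, the growth hormone gene, had 6.06 to 7.87 CPM in knockout libraries and 0 CPM in control libraries. Over the 12 libraries, the genotypes did not overlap for 0.117% of 16250 genes at a mean of 0.5 CPM or more. The genotypes thus differ in Gh RNA as well as in Egfr, and the part of Gh in the ligand values was not tested. The titles of the pieces fare differently from the genotype labels. Nr2f1, a transcription factor gene with high caudal and low rostral levels in the developing mouse cortex, was higher in the library titled rostral for embryos 2 (71.3 CPM caudal, 340 CPM rostral) and 3 (58.6 CPM caudal, 348 CPM rostral) and higher in the library titled caudal for the other 4. Control rostral libraries 1 and 3 each held transcripts of both sexes (Xist at 230 and 278 CPM, 4 Y-linked genes at 94.6 and 92.0 CPM in sum), and the sexes of the caudal and the rostral library differed or were mixed in all titled embryos but 7. Mitochondrial genes took 7.25% of counts in knockout rostral 7 and 4.77% in knockout caudal 5, and 1.96% to 3.53% elsewhere. The cortical genes Emx1, Neurod6, Tbr1 and Bcl11b were present in every group, with summed levels of 1013 to 1533 CPM in knockout and 1028 to 1590 CPM in control libraries.

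Of the 8 ligands, 4 were expressed at appreciable levels in this tissue, 2 were low and 2 were close to undetected. Set side by side per length, as TPM (counts divided by the deposited exon lengths and scaled to the same total), the mean level over 12 libraries was 9.46 TPM for Tgfa, 7.74 TPM for Nrg1, 5.28 TPM for Nrg3 and 5.19 TPM for Hbegf. Nrg2 followed at 1.33 TPM and Egf at 0.523 TPM, while Btc and Nrg4 averaged 0.0304 and 0.0188 TPM. The ranges of Tgfa (6.87 to 12.1 TPM), Nrg1 (5.43 to 9.82 TPM), Nrg3 (1.65 to 10.6 TPM) and Hbegf (3.67 to 6.76 TPM) overlapped each neighbour in this order. The order of neighbours is thus not fixed by these ranges, which do not compare genes within a library. Every Tgfa value nonetheless lay above every Hbegf value. Nrg2 (0.710 to 2.26 TPM) lay below every Hbegf value, and Egf (0.392 to 0.668 TPM) lay below every Nrg2 value. Btc (0 to 0.0781 TPM) and Nrg4 (0 to 0.0606 TPM) overlapped each other below all the rest. The most abundant ErbB receptor was Erbb4, the neuregulin receptor, at 26.3 TPM, above Erbb2 at 4.55 TPM and Erbb3 at 0.344 TPM. Egfr averaged 1.48 ± 0.365 TPM in knockout libraries and 8.23 ± 1.91 TPM in control libraries (SD, n = 6 each). All of these levels are of tissue RNA, in which fewer cells of a type and less RNA per cell cannot be told apart.

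**Figure D1:**
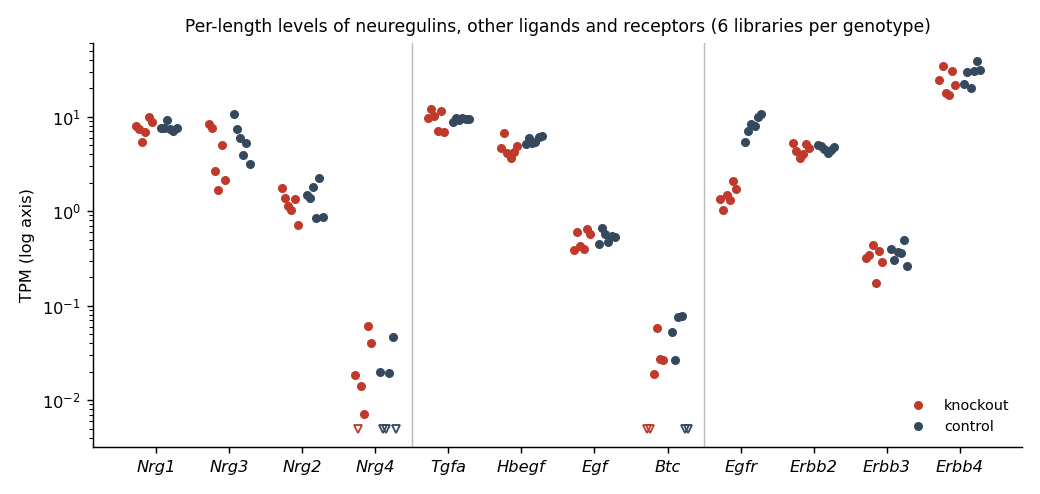
Per-length levels (TPM, log axis) of the neuregulins, the EGF receptor ligands and the ErbB receptors, with 1 point per library, knockout left of control, and open triangles for libraries with a count of 0. Egfr is the gene whose genotypes separate, at 1.02 to 2.08 TPM in knockout and 5.33 to 10.5 TPM in control libraries, and the points of each ligand overlap between genotypes.

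Among the remaining EGF-like ligands that bind the same receptors, Areg, Ereg and Epgn were also scarce, at means of 0.162, 0.0139 and 0.241 TPM. Areg had 0 to 2 counts in knockout libraries and 1 to 4 counts in control libraries. The transmembrane proteins with EGF-like motifs Tmeff1, Cspg5 and Tmeff2, of which Cspg5 is also known as neuroglycan C, averaged 353, 17.7 and 4.38 TPM.

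The 6 measurable ligands differed in how far they varied. The highest library exceeded the lowest by 1.35-fold for Nrg1, 1.64-fold for Hbegf, 1.72-fold for Egf and 1.90-fold for Tgfa, but by 3.20-fold for Nrg2 and 5.40-fold for Nrg3 (CPM). Within caudal libraries the spread of Nrg3 was 2.698-fold and within rostral libraries 3.02-fold. Nrg2 rests on 19.5 to 66.0 counts per library, fewer than the 120 to 605 counts of Nrg3.

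**Figure D2:**
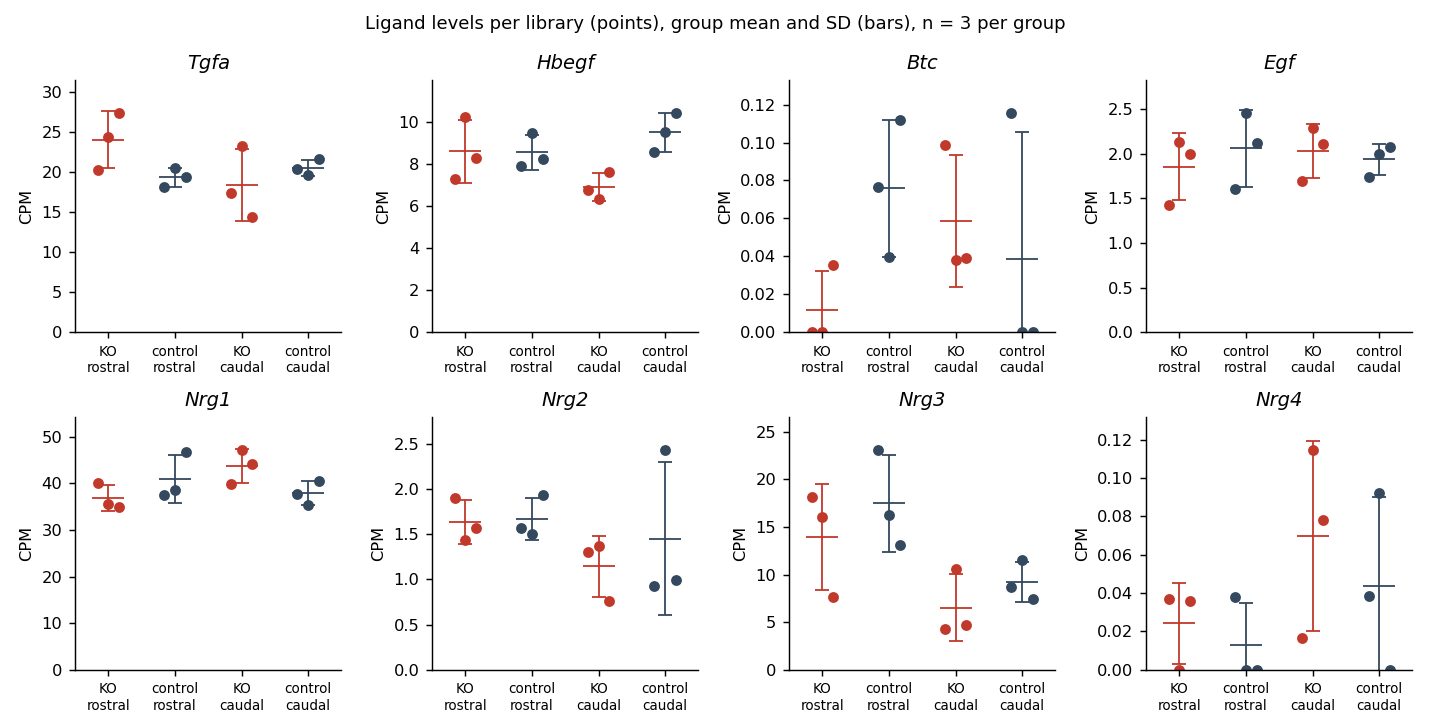
CPM of each ligand in every library (points), with the group mean and SD (bars, n = 3), for knockout rostral, control rostral, knockout caudal and control caudal libraries. Nrg3 has a lower mean in caudal than in rostral groups of the same genotype, with overlapping values among knockouts. Hbegf does not overlap between genotypes in caudal libraries, as for 10.2% of genes at a mean of 0.5 CPM or more. Btc and Nrg4 rest on at most 3 counts per library.

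The first question was whether loss of Egfr moved the RNA of the ligands. The counts of both libraries titled for an embryo were summed, and 3 knockout sums were compared with 3 control sums by edgeR's quasi-likelihood test with Benjamini-Hochberg adjustment over all genes. These sums take the titled pairs as given, although the libraries of titled embryos 5, 2 and 9 were of opposite sex. Btc and Nrg4 did not pass the filter on low counts, so 6 of 8 ligands were tested. None was called in either direction at an adjusted p of 0.05 (adjusted p = 0.9999 for each), against 6 of 18937 genes in all (0.0317%). None had an unadjusted p under 0.05. DESeq2's Wald test called 0 ligands among 32 genes, and edgeR without the filter on low counts called 0 ligands among 110 genes. The median log2 fold change of the 6 was -0.08, beside 0.00 over all genes.

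Tgfa, which lies on the EGF receptor side of the family, had 18.8, 23.9 and 21.2 CPM in the knockout sums 5, 2 and 7, against 19.3, 20.1 and 20.5 CPM in the control sums 1, 3 and 9. The genotypes overlapped, with a log2 fold change of 0.12 and a 95% interval from -0.09 to 0.33. Hbegf, whose product binds heparan sulfate as well as its receptors, had 7.00, 8.36 and 7.95 CPM in knockout and 8.23, 9.496 and 9.31 CPM in control sums. The highest knockout value just exceeded the lowest control value, and the log2 fold change was -0.19 (95% interval -0.43 to 0.06). Egf, the founding ligand of the family, had 1.57, 2.21 and 2.05 CPM in knockout and 1.67, 2.22 and 2.10 CPM in control sums. Its log2 fold change of -0.01 had an interval from -0.44 to 0.41, a range that leaves a change of moderate size in either direction undetectable at this depth.

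Nrg1 was the ligand with the narrowest interval. It had 40.0, 41.1 and 39.4 CPM in knockout sums, against 37.6, 36.9 and 43.7 CPM in control sums, a log2 fold change of 0.05 (95% interval -0.12 to 0.23). Nrg2 had 1.59, 1.41 and 1.18 CPM in knockout and 1.25, 1.99 and 1.48 CPM in control sums, with a log2 fold change of -0.14 (-0.63 to 0.34). Nrg3 had 10.9, 13.4 and 6.23 CPM in knockout and 15.9, 13.8 and 10.3 CPM in control sums, with a log2 fold change of -0.37 whose interval, -1.04 to 0.31, was the widest of the 6. Leaving out 1 titled embryo moved it to -0.12 without knockout 7, -0.23 without control 1 and -0.61 without knockout 2. The CPM of knockout and control sums overlapped for all 6 ligands, whereas they did not overlap for 8.07% of 16250 genes at a mean of 0.5 CPM or more. Over the 12 single libraries, the genotypes again overlapped for all 6, and 0.117% of genes had no overlap.

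Btc and Nrg4 were counted in single reads. Btc had 0, 0 and 1 counts in knockout rostral libraries and 3, 1 and 1 counts in knockout caudal libraries, against 2, 1 and 3 counts in control rostral and 3, 0 and 0 counts in control caudal libraries. Nrg4 had 1, 0 and 1 counts in knockout rostral and 0.5, 3 and 2 counts in knockout caudal libraries, against 1, 0 and 0 in control rostral and 1, 2.5 and 0 in control caudal libraries. Summed over 12 libraries this made 15 counts for Btc and 12 for Nrg4, and no library exceeded 3 counts, the limit that a count of 0 allows, so no fold change is given and no genotype difference was detectable at this depth. Nrg4 shares exonic sequence with Fbxo22 on the opposite strand (50.8 to 57.9 CPM), from which stranded counting separates it.

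Within rostral libraries, the largest of the 6 differences was that of Tgfa. It had 20.3, 24.5 and 27.5 CPM in knockout rostral libraries 5, 2 and 7, against 18.2, 20.5 and 19.5 CPM in control rostral libraries 1, 3 and 9. Both genotypes met at 20.3 CPM in knockout 5 and 20.5 CPM in control 3. The log2 fold change was 0.35 ± 0.14 (SE), with a 95% interval from 0.02 to 0.69 and an unadjusted p of 0.0404 in edgeR's quasi-likelihood test, which did not survive adjustment over all genes (adjusted p = 0.999992). No gene passed in this comparison (0 of 17131, 0%), 180 had an unadjusted p under 0.05, of which Tgfa was the only ligand, and DESeq2 called 4 genes and 0 ligands. Egfr itself missed the threshold here despite its non-overlapping values (log2 fold change -2.27, adjusted p = 0.999992). The highest Tgfa value came from knockout rostral 7, the library with 7.25% mitochondrial counts, and the part of RNA quality in this difference was not tested. Microglial markers summed to 64.8 to 166 CPM in knockout rostral and 61.9 to 101 CPM in control rostral libraries, with all 6 positive in log2 fold change (median 0.53), 0 called and none at 0. All 6 endothelial (median 0.28), all 4 erythroid (0.38) and all 4 tested meningeal markers (0.21) were positive too, with 0 called in each. All 4 cortical (-0.19) and 8 of 9 ventral forebrain markers (-0.18) were negative, with 0 called. Interneuron (-0.03), oligodendrocyte precursor (-0.09) and choroid plexus markers (-0.04) lay on both sides of 0. The part of these lists in the Tgfa difference was not tested either. The other 5 log2 fold changes were 0.05 for Hbegf (95% interval -0.36 to 0.45), -0.11 for Egf (-0.76 to 0.53), -0.12 for Nrg1 (-0.41 to 0.18), 0.00 for Nrg2 (-0.56 to 0.57) and -0.29 for Nrg3 (-1.09 to 0.51). That of Nrg3 was -0.0039 without knockout rostral 7, -0.05 without control rostral 1, -0.52 without knockout rostral 5 and -0.45 without control rostral 9, and that of Tgfa was 0.23 without knockout rostral 7. Of the 6, none had genotypes that did not overlap, beside 6.18% of genes.

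Within caudal libraries, Hbegf was the ligand whose genotypes separated. It had 6.75, 6.34 and 7.62 CPM in knockout caudal libraries 5, 2 and 7, against 8.56, 9.51 and 10.4 CPM in control caudal libraries 1, 3 and 9. Every knockout value lay below every control value, at a mean of 72.6% of control (exact two-sided permutation p = 0.1, the smallest 3 against 3 allow). In edgeR's quasi-likelihood test the log2 fold change was -0.45 ± 0.15 (SE; 95% interval -0.80 to -0.10), with an unadjusted p of 0.0173 and an adjusted p of 0.837. The difference therefore fell short of the threshold, which 8 of 16964 genes passed (0.0472%), none of them a ligand. DESeq2 called 0 ligands among 77 genes, and edgeR without the filter 0 ligands among 57 genes. Genotypes did not overlap for 1 of 6 ligands, beside 10.2% of 16250 genes, so that a separation of this kind was common in these libraries.

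Several marker lists of other cell types had negative medians in the same comparison. Endothelial markers summed to 53.8 to 108 CPM in knockout caudal and 99.3 to 163 CPM in control caudal libraries, with all 6 negative in log2 fold change (median -0.50) and 0 called. Markers of oligodendrocyte precursors summed to 36.0 to 63.4 CPM in knockout caudal and 83.9 to 126 CPM in control caudal libraries, with all 5 negative (median -0.96) and 0 called. In the knockout sums, 2 of these 5 were called lower, Olig1 (log2 fold change -1.26, adjusted p = 0.0084 by edgeR) and Olig2 (-1.33, adjusted p = 0.00752 by edgeR), both transcription factor genes of the oligodendrocyte lineage. Interneuron markers summed to 84.6 to 221 CPM in knockout caudal and 169 to 329 CPM in control caudal libraries, with all 6 negative (median -0.79) and 0 called. All 4 tested meningeal (median -0.76), all 3 tested choroid plexus (-1.15) and all 4 erythroid markers (-0.18) were negative as well, as were 8 of 9 ventral forebrain (-0.26) and 5 of 6 microglial markers (-0.19), with 0 called. Cortical markers went the other way, with 3 of 4 positive (median 0.25) and 0 called. No marker in these lists was at 0 in either group, and their part in the Hbegf difference was not tested.

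Nrg1 leaned the other way in caudal libraries. It had 39.9, 47.1 and 44.1 CPM in knockout caudal libraries, against 37.7, 35.3 and 40.5 CPM in control caudal libraries, and these overlap through knockout 5. The log2 fold change was 0.22 ± 0.10 (SE), with an unadjusted p of 0.0569 and an adjusted p of 0.989 in edgeR's quasi-likelihood test. Nrg3 had 4.28, 10.6 and 4.69 CPM in knockout caudal and 8.68, 11.5 and 7.46 CPM in control caudal libraries, a log2 fold change of -0.49 with an interval from -1.34 to 0.35. It moved to -1.03 without knockout caudal 2, -0.25 without knockout caudal 5, -0.31 without knockout caudal 7 and -0.29 without control caudal 3. The log2 fold changes of Tgfa (-0.15, 95% interval -0.54 to 0.24), Egf (0.08, -0.43 to 0.59) and Nrg2 (-0.32, -1.34 to 0.70) had intervals on both sides of 0. The median of the 6 ligands was -0.24 in caudal and -0.06 in rostral libraries, beside 0.00 over all genes in each.

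**Figure D3:**
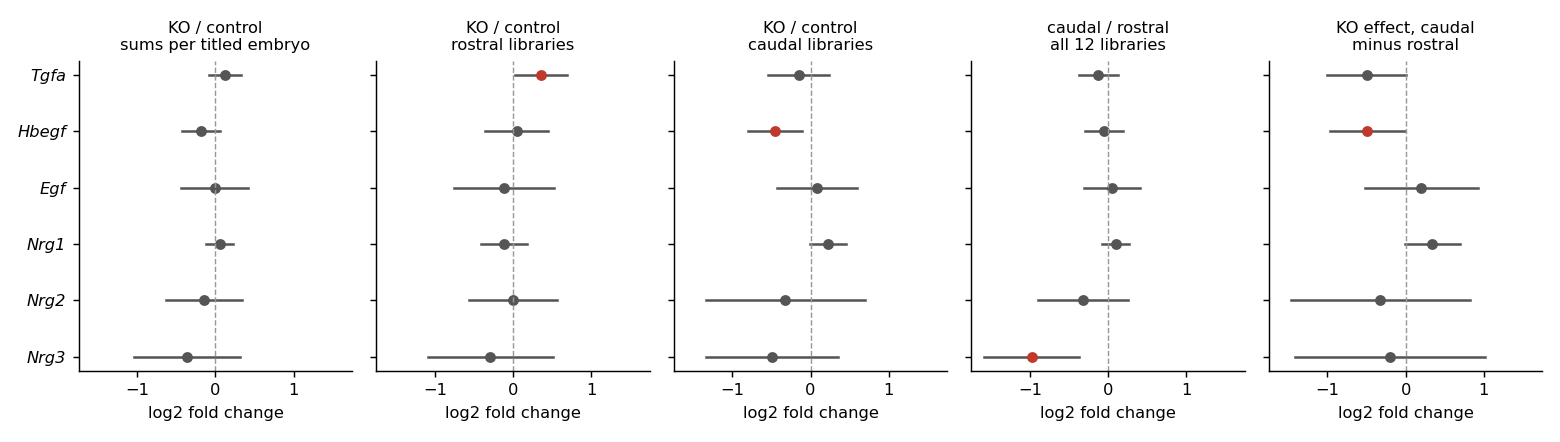
Log2 fold changes of the 6 tested ligands with their 95% intervals in the 5 comparisons, knockout over control in the first 3 panels, caudal over rostral in the fourth and the caudal minus the rostral genotype effect in the last. Red points mark the 4 values with an unadjusted p under 0.05 (Tgfa in rostral, Hbegf in caudal and in the difference of effects, Nrg3 between pieces), and no point passed adjustment over all genes.

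Whether the genotype effect differed between pieces was tested directly, as the effect in caudal minus the effect in rostral libraries. The values were -0.49 for Hbegf (95% interval -0.97 to -0.01, unadjusted p = 0.0456), -0.50 for Tgfa (-1.004 to 0.01, unadjusted p = 0.0528) and 0.34 for Nrg1 (-0.01 to 0.69, unadjusted p = 0.0537), each with an adjusted p of 0.998 in edgeR's quasi-likelihood test. Those of Nrg2, Nrg3 and Egf were -0.32, -0.20 and 0.20. No gene was called (0 of 17734, 0%) and 486 had an unadjusted p under 0.05, while DESeq2 called 1 gene and 0 ligands. A difference between pieces in the response of Tgfa, Hbegf or Nrg1 is thus not established by these libraries.

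With the pieces taken as titled, the largest log2 fold change of the 6 tested ligands lay between caudal and rostral libraries and not between the genotypes. Nrg3, a ligand of Erbb4, had 4.28, 10.6 and 4.69 CPM in knockout caudal libraries 5, 2 and 7, against 18.2, 16.05 and 7.64 CPM in knockout rostral libraries. It had 8.68, 11.5 and 7.46 CPM in control caudal libraries 1, 3 and 9, against 23.1, 16.3 and 13.1 CPM in control rostral libraries. Caudal and rostral values did not overlap among controls, and among knockouts they met through the rostral library of embryo 7. Knockout rostral 7 and knockout caudal 5, the libraries with 7.25% and 4.77% mitochondrial counts, had the lowest Nrg3 values of their pieces. The part of RNA quality was not tested, and the log2 fold change given below was -0.74 without embryo 5 and -1.03 without embryo 7. The caudal library was lower in 6 of 6 titled embryos, with caudal to rostral ratios of 0.235, 0.659 and 0.613 for knockouts 5, 2 and 7 and of 0.376, 0.708 and 0.569 for controls 1, 3 and 9. A caudal value lower in all 6 titled embryos occurred in 3.34% of 16250 genes. The pairs are those of the titles, which the sex-linked genes go against in embryos 5, 2 and 9.

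Averaged over both genotypes, the log2 fold change of Nrg3 between caudal and rostral libraries was -0.98 ± 0.28 (SE; 95% interval -1.59 to -0.37). Its unadjusted p was 0.00474 and its adjusted p 0.430 in edgeR's quasi-likelihood test, in which no gene passed (0 of 17734, 0%) although 1765 had an unadjusted p under 0.05. DESeq2's Wald test called 84 genes and 0 ligands, with an adjusted p of 0.0578 for Nrg3. Without titled embryos 2 and 3, whose Nr2f1 levels go against their titles, the log2 fold change was -1.32 (adjusted p = 0.124 by edgeR). In those 2 embryos the library titled rostral had the higher Nrg3 value, as in the other 4, although it also had the higher Nr2f1 value. Of 9 markers of ventral forebrain and striatum, 7 were positive between caudal and rostral libraries (median log2 fold change 0.32) and 0 were called. Their summed levels were 125 to 608 CPM in knockout caudal and 138 to 470 CPM in knockout rostral libraries, and 229 to 721 CPM in control caudal and 174 to 566 CPM in control rostral libraries. None of the 9 was at 0 in any group. Microglial (5 of 6, median 0.39) and tested meningeal markers (all 4, 0.26) were positive too. So were 3 of 4 choroid plexus (0.18), cortical (0.07) and erythroid markers (0.05). Most interneuron (4 of 6, -0.15), endothelial (5 of 6, -0.05) and oligodendrocyte precursor markers (all 5, -0.02) were negative. In these lists 0 were called, and the part of any list in the Nrg3 difference was not tested.

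**Figure D4:**
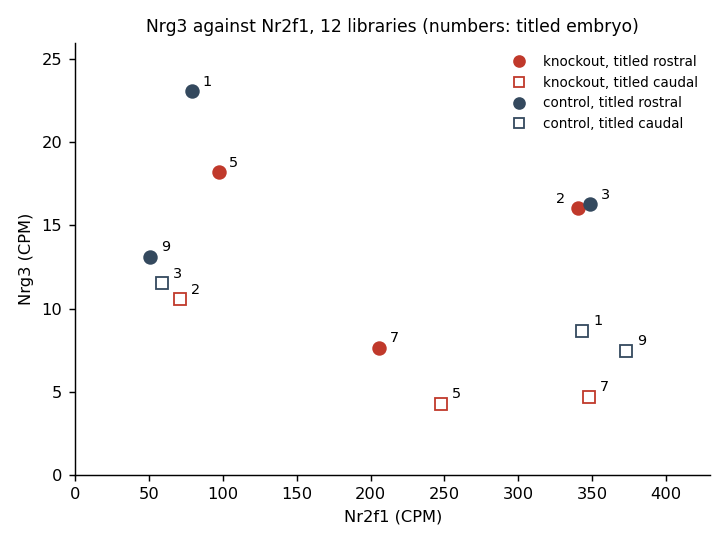
Nrg3 against Nr2f1 (both CPM) in 12 libraries, knockout in red and control in blue, with filled circles for libraries titled rostral, open squares for those titled caudal and the number of the titled embryo beside each point. The rostral libraries of embryos 2 and 3 combine Nr2f1 at 340 and 348 CPM with Nrg3 at 16.05 and 16.3 CPM, whereas the caudal libraries of embryos 5, 7, 1 and 9 combine Nr2f1 at 248, 348, 343 and 373 CPM with Nrg3 at 4.28, 4.69, 8.68 and 7.46 CPM.

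Over all 12 libraries, the caudal and rostral values of each of the 6 ligands overlapped, Nrg3 included, and 0.357% of genes had no overlap. Nrg2 had 1.30, 1.37 and 0.762 CPM in knockout caudal libraries, against 1.90, 1.43 and 1.57 CPM in knockout rostral libraries. It had 0.926, 2.43 and 1.00 CPM in control caudal libraries, against 1.56, 1.51 and 1.94 CPM in control rostral libraries. Its caudal value was lower in 5 of 6 titled embryos, control embryo 3 being the exception, and the log2 fold change was -0.32 (95% interval -0.89 to 0.26). In knockout embryos the caudal and rostral values of Nrg2 did not overlap, as for 13.1% of genes, and in control embryos Nrg3 was the ligand without overlap, as were 8.42% of genes. The log2 fold changes of Tgfa (-0.12, 95% interval -0.38 to 0.13), Hbegf (-0.05, -0.29 to 0.19), Nrg1 (0.10, -0.08 to 0.27) and Egf (0.05, -0.31 to 0.41) were small, with caudal values lower in 4, 3, 3 and 2 of 6 titled embryos.

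The rest of the pathway was examined in 33 genes, of which 30 passed the filter in each comparison. Of the 4 receptors, Egfr was called lower in the knockout sums (log2 fold change -2.39 ± 0.17 SE, adjusted p = 0.00556 by edgeR) and in knockout caudal libraries (-2.48 ± 0.17, adjusted p = 0.0025), which is the targeted gene and no independent result. No other gene of the pathway was called in any of the 5 comparisons: 0 of 3 tested EGF-like ligands, 0 of 11 sheddases and processing factors, 0 of 7 inhibitors and 0 of 5 adapters. The medians of these lists in the knockout sums were 0.06, -0.03, -0.05 and -0.02 in log2 fold change.

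Erbb4, the receptor of the neuregulins, came closest among the remaining receptors. It had 78.7, 116 and 85.4 CPM in knockout caudal libraries 5, 2 and 7, against 123, 155 and 136 CPM in control caudal libraries 1, 3 and 9. These do not overlap, as for 10.2% of 16250 genes at a mean of 0.5 CPM or more. The log2 fold change was -0.56 ± 0.16 (SE), with an adjusted p of 0.755 by edgeR. In rostral libraries Erbb4 had 97.8, 131 and 90.6 CPM in knockout, against 87.0, 119 and 80.0 CPM in control, which overlap. Its caudal minus its rostral genotype effect was -0.75 (unadjusted p = 0.0170, adjusted p = 0.998 by edgeR). Interneurons are a main site of Erbb4 in the mouse cortex. All 6 of their markers were lower in knockout than in control caudal libraries (median log2 fold change -0.79), with 0 called. Their sums given above overlapped between these groups, and the part of interneurons in the Erbb4 difference was not tested. Cspg5 had 68.5, 74.5 and 77.1 CPM in knockout rostral libraries, against 59.5, 66.0 and 47.9 CPM in control rostral libraries. These do not overlap either, as for 6.18% of genes (log2 fold change 0.39, adjusted p = 0.999992 by edgeR). In caudal libraries the log2 fold change of Cspg5 was -0.24. Its caudal minus its rostral genotype effect was -0.62 (unadjusted p = 0.0353, adjusted p = 0.998 by edgeR). Among processing factors, the metalloprotease gene Adam12 had log2 fold changes of -0.38 in knockout sums and -0.56 in knockout caudal libraries (adjusted p = 0.9999 and 0.959 by edgeR). Pathway genes with the smallest unadjusted p between caudal and rostral libraries were Cblb (0.00193 by edgeR), Gab1 (0.00582) and Tmeff2 (0.0127). Their log2 fold changes were 0.30, 0.37 and -0.59, with adjusted p of 0.422, 0.430 and 0.436 by edgeR.

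For each measurable ligand, the genes whose log2(CPM + 1) followed it most closely over the 12 libraries were taken from 12546 candidates. Nrg3 had the closest followers, Nin (r = 0.972), Lrfn5 (r = 0.967) and Ldb2 (r = 0.962). Lrfn5 ranged from 9.05 to 47.1 CPM, a spread like that of Nrg3. Nrg1 was followed by Ptpn21, Creb5 and Zfp507 (r = 0.938, 0.901 and 0.880), Hbegf by Pigt, Mpp4 and Pcdh15 (r = 0.915, 0.910 and 0.905), Tgfa by Tafa5, Rusf1 and Pls3 (r = 0.855, 0.838 and 0.837) and Egf by Ptpdc1, Mbnl2 and Trps1 (r = 0.845, 0.814 and 0.787). Nrg2 was followed by Drd1, a dopamine receptor gene of striatal neurons (r = 0.927), and by Trank1 and Fads6 (r = 0.922 and 0.921). Drd1 ranged from 0.156 to 3.91 CPM. Between caudal and rostral libraries its log2 fold change was -0.89 and that of Nrg2 was -0.32. Of the 9 listed markers of ventral forebrain and striatum, which include Drd1, 7 went the other way. The part of striatal tissue in the Nrg2 values was not tested. The points are libraries that share piece, genotype and dissection, and each set was picked as the highest of many correlations, so these values are descriptions without a test.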

How the data were processed

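Per the labels' protocols, messenger RNA captured from 12 samples was sequenced from both ends of each fragment. The submitters' processing notes name STAR 2.7.8a, featureCounts 2.0.3 and the build GRCm39. The deposited values are estimated counts (expected counts) per gene, which the authors left without normalization and which, per the file headers, came from GENCODE release 28, with fragments assigned by the reverse strand and shared reads split into fractions. Between 21.6% and 23.9% of the values above 0 in a library were not whole.

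Tests used rounded counts and edgeR 4.0.16 (R 4.3.3, TMM, filterByExpr, robust quasi-likelihood fits, Benjamini-Hochberg adjusted p under 0.05 over all genes). The SE is the size of the log2 fold change over the square root of F. CPM uses library totals, and TPM the deposited exon lengths. In the sums and within a piece, replicates are titled for separate embryos, and a p-value reflects how far these vary. The tests between pieces and of the difference of effects had no replicate block. They took all 12 libraries as separate samples, so both libraries titled for an embryo counted separately. The code of the tests was checked on simulated counts, with the same dispersion for every gene and no embryo structure. That check does not show which changes the tests could detect in these libraries.

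The members, gene lists, tests and alternatives were chosen with earlier results of these data known. Genes named are the 8 ligands and the called genes of the pathway lists with up to 4 others by smallest p between genotypes. Cblb, Gab1 and Tmeff2 are named for their p between pieces. The 3 genes most like each ligand at a mean of 1 CPM or more are named too. Nr2f1, Gh and the sex-linked genes were named after their values were seen. Alternatives were the size factors and the Wald test of DESeq2 1.42.0, testing without the filter, each titled embryo left out, titled embryos 2 and 3 left out, blocks by titled embryo or by the other title number, libraries as separate samples, limma-voom (limma 3.58.1) and rostral libraries without the 2 controls of mixed sex.

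The titles give the caudal and the rostral library of an embryo the same number. Over 1000 genes, the correlations of their deviations from group means ran from -0.691 to -0.238, with 0 of 6 above 0.1. By Xist and the Y-linked genes, the rostral and caudal libraries of titled embryos 5, 2 and 9 were of opposite sex. In embryo 2, Xist was at 0.0699 CPM in the rostral and 426 CPM in the caudal library. These values go against the pairing, which rests on the titles alone. The titled pairing entered the sums, the alternatives with the titled embryo as a block or random effect, and the counts of titled embryos. Sequences came from the transcripts of another annotation (GENCODE vM21, GRCm38), from which no coordinates were taken. Of the cortical marker genes, 2 are not reported here.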

Additional observations from a re-analysis of the deposited data

How the results depend on the processing

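No ligand was called in any of 58 alternative fits, and the lowest adjusted p of a ligand was 0.0578, for Nrg3 between pieces by DESeq2's Wald test. Of 348 alternative log2 fold changes, 319 kept their sign, and the 29 that turned reached at most 0.36 in size. Nrg3 between caudal and rostral libraries stayed negative in all 11 alternatives, from -1.32 to -0.74 (adjusted p 0.0578 to 0.998), and Hbegf in caudal libraries in all 11, from -0.53 to -0.37 (adjusted p 0.562 to 0.99999). With the titled embryo as a replicate block, Nrg3 was at -0.99 (adjusted p = 0.695), and the block changed no call. Scaling by TMM in place of library totals moved 0 of 32 group means by over 1 SD.

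The number of genes called depended on the setting. In the sums it was 6, against 32 by DESeq2, 110 with no filter, 19 without titled embryos 2 and 3, 3 with 12 separate libraries, 11 by limma-voom, and 3 to 21 with 1 titled embryo left out (21 without 2, 10 without 3, 3 without 5). In rostral libraries it was 0, against 4 by DESeq2 and 2 with no filter. In caudal libraries it was 8, against 77 by DESeq2, 57 with no filter, and 2 to 8 with 1 embryo left out (2 without 5, 4 without 7, 5 without 9). Between pieces it was 0, against 84 by DESeq2, 2 with no filter, 16 without embryos 2 and 3, and 0 to 6 with 1 embryo left out. For the difference of effects it was 0, against 1 by DESeq2 and 0 to 6 with 1 embryo left out.

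These log2 fold changes turned sign, none of them called. Without titled embryos 2 and 3, Nrg1 (-0.0014) and Nrg2 (0.0682) did so in sums, Hbegf (-0.0194) in rostral libraries, Nrg2 (0.15) in caudal libraries, Hbegf (0.0754) between pieces and Nrg2 (0.13) in the difference of effects. In rostral libraries Nrg2 was at -0.00055 with no filter and -0.0016 with the title number as a block, and without control libraries 1 and 3 Nrg2 was at -0.25 and Nrg3 at 0.0822. Leaving out each titled embryo gave -0.13 to 0.12 for Egf and -0.29 to 0.0616 for Nrg2 in sums. In rostral libraries it gave -0.0894 to 0.16 for Hbegf, -0.11 to 0.15 for Nrg2, -0.27 to 0.0525 for Egf and -0.19 to 0.012 for Nrg1. In caudal libraries it gave -0.0035 to 0.21 for Egf and -0.57 to 0.29 for Nrg2, and between pieces -0.098 to 0.047 for Hbegf and -0.22 to 0.0061 for Tgfa. In the difference of effects it gave -0.67 to 0.36 for Nrg2 and -0.63 to 0.27 for Nrg3. The causes were not tested. Counts of 39 to 62 per library for Egf and 19.5 to 66.0 for Nrg2 limit their precision.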
